A study of Mus musculus with 24 samples.

Results

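The coreceptor genes Cd4, Cd8a and Cd8b1 were followed in selecting thymocytes of 2 mouse strains together with 5 genes for transcription factors of the choice between the CD4 and the CD8 lineage, Zbtb7b, Runx1, Runx3, Gata3 and Tox. These 8 genes were chosen by name, out of 12393 genes that the array annotation gives by 1 symbol, and they are covered by 16 of the 22626 probesets that are not controls. The data are 24 Affymetrix 430A arrays, with 3 independent pools of sorted cells in each of 8 groups, from female mice of 6 to 8 weeks. Every mouse carried the 3A9 T cell receptor (TCR) transgene, whose product recognizes a peptide of hen egg lysozyme on the class II molecule I-Ak and is stained by the antibody 1G12, and both strains carried the k haplotype of the major histocompatibility complex. The groups were NOD S-, B10 S-, NOD S+, B10 S+ and, for each strain, PreS from TCR insHEL mice and PreS from TCR mice. S- cells (negative selection) came from TCR insHEL mice, in which the insulin promoter drives lysozyme in thymic medullary epithelium. S+ cells (positive selection) came from mice with the TCR transgene alone. S- and S+ shared 1 sort gate, CD4+CD8low CD69+1G12+, and PreS cells (before selection) were sorted as CD4+CD8+CD69-1G12-. NOD mice are prone to autoimmune diabetes and B10 mice are not, and a transgenic TCR of 1 specificity makes these cells a model of selection by class II alone.

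A thymocyte that has rearranged its receptor carries both coreceptors, CD4, which binds class II molecules, and CD8, a pair of the chains encoded by Cd8a and Cd8b1, which binds class I molecules. Selection on class II leads to helper cells that keep CD4, and selection on class I to cytotoxic cells that keep CD8, by way of an intermediate in which CD8 falls first. Zbtb7b encodes ThPOK, the factor that commits cells to the CD4 lineage, Runx3 encodes its counterpart in the CD8 lineage, which silences Cd4, Runx1 acts on the Cd4 silencer in earlier thymocytes, and Gata3 and Tox encode factors needed for CD4 lineage development.

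Coordinates and sequences of the genes were taken from RefSeq on the build GRCm38.p6, in which Cd8b1 (chr6:71322788-71337492) lies 35934 bases before Cd8a (chr6:71373427-71379171), Cd4 lies on the same chromosome at chr6:124864693-124888247, and Zbtb7b lies at chr3:89377644-89393673. The table of promoters held 8 promoters for 5 of the 8 genes. The 250 bases before the start are shown for Cd8a and for both starts of Zbtb7b, since the mRNAs of these genes moved in opposite directions between PreS and selecting cells. Capitals mark E boxes (CANNTG, the motif of E proteins) and the RUNX motif (TGTGGT or TGCGGT), both searched on either strand.
Cd8a, plus strand, chr6:71373177-71373426: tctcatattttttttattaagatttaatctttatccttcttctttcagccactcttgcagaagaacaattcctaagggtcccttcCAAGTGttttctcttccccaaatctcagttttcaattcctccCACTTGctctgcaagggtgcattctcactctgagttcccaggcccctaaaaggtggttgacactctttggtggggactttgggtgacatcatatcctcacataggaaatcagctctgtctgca
Zbtb7b upstream start, minus strand, chr3:89393379-89393628: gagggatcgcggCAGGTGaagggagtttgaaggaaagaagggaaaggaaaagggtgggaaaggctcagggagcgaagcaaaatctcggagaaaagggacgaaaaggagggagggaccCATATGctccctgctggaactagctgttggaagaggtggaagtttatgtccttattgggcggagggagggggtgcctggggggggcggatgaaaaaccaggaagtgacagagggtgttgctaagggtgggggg
Zbtb7b downstream start, minus strand, chr3:89387672-89387921: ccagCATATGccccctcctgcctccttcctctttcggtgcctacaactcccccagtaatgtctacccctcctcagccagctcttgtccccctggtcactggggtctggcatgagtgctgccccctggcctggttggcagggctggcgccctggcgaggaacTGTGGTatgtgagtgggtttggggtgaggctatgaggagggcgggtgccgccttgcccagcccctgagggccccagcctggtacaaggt
The Cd8a window held 2 E boxes and no RUNX motif, the upstream window of Zbtb7b held 2 E boxes and no RUNX motif, and the downstream window held 1 of each. Of 32851 promoters of the same length, 66.2% held an E box and 18.6% the RUNX motif, so these matches are only a description of the letters.

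Each value is a MAS 5.0 signal, a linear measure of the brightness of 1 probeset, and it gives the relative mRNA level of that probeset between arrays, not between genes. Fold changes come from log2 signals brought to a common mean and variance on each array, and they were tested with limma. The p values were adjusted over the 12838 probesets whose signal reached 32 on each of the 3 arrays of a group, and a change was called at an adjusted p under 0.05. A gene was represented by its brightest probeset. Of the 16 probesets 12 passed the filter on low signals, and 7 of the 8 genes were tested, since the single probeset of Runx3 did not pass. In bulk pools like these, fewer cells of a type and less mRNA per cell cannot be told apart. Where the arrays of groups are said not to overlap, this is only a description. The share of all probesets that separate in this way was not counted.

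Of 6 markers of the T lineage, none was under 32 on all arrays of a condition. The summed signal of 9 markers of dendritic cells and macrophages was 2651 to 3729 on the NOD S+ arrays, against 702 to 2779 on all others. Of the 8 of these markers tested, 3 (Itgax, Csf1r and Adgre1) were higher in NOD S+ than in NOD PreS cells. The summed signal of 6 B cell markers was 1698 to 3049 on the arrays of selecting cells and 3212 to 8153 on those of PreS cells, with Cd79b called lower than in PreS in all 4 groups of selecting cells and Ighm in 3, all but NOD S+. The ratio of the 3' to the 5' probeset of the Gapdh control, which grows as the copied RNA gets shorter, was 57.2, 40.9 and 3.63 in NOD S+ and 29.4, 3.98 and 3.15 in B10 S+ cells, and 2.19 to 28.9 on the other arrays. The part of these differences in the results was not tested except where a value with the ratio as a covariate is given.

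Cd8a was far lower in selecting than in PreS cells of both strains, and Cd8b1 was called lower in 3 of the 4 comparisons with PreS, all but NOD S-. Since the gate selects on CD8 protein, this checks the sort and is no finding. The Cd8a signal was 524, 282 and 265 in NOD S- cells and 621, 403 and 437 in B10 S- cells. In S+ cells it was 318, 179.6 and 681 in NOD and 266, 255 and 328 in B10. In PreS cells it had a lowest value, median and highest value of 2460, 3098 and 3386 in NOD and of 1809, 2365 and 3283 in B10. No S+ or S- array reached the range of its strain's PreS arrays. Against PreS, the log2 fold change of Cd8a was -3.19 ± 0.36 (SE, limma adjusted p = 1.18e-04) in NOD S- cells, -2.29 ± 0.21 (adjusted p = 2.05e-05) in B10 S- cells, -3.18 ± 0.36 (adjusted p = 1.88e-04) in NOD S+ cells and -3.06 ± 0.21 (adjusted p = 7.72e-07) in B10 S+ cells. A second probeset of Cd8a had log2 fold changes of -2.73, -2.16, -3.09 and -2.84 in the same order of groups, all called. On this probeset the NOD S- call was lost without NOD S- replicate 2 (adjusted p = 0.0948) or 3 (adjusted p = 0.112), with no filter (adjusted p = 0.0504) and with the methods' t-test (adjusted p = 0.0585). With day as a block the calls were lost in NOD S- (adjusted p = 0.576), B10 S- (adjusted p = 0.119) and NOD S+ cells (adjusted p = 0.173). The NOD S+ call of this probeset was also lost without NOD S+ replicate 1 (adjusted p = 0.0558) or 2 (adjusted p = 0.0626). Without the 3 arrays of highest Gapdh ratio, which leaves only NOD S+ replicate 3 in its group, its NOD S+ value was -1.14. The correlation of both probesets over the 24 arrays was 0.923.

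Between S- and S+ cells, which shared the gate, Cd8a was not called in either strain. In B10 all 3 S- arrays were above all 3 S+ arrays, with a log2 fold change of 0.76 (95% interval 0.24 to 1.29, limma adjusted p = 0.178). In NOD the groups overlapped, at -0.01 (interval -0.91 to 0.89, adjusted p = 0.996). The drop of Cd8a from PreS to S- differed by -0.90 between NOD and B10 (interval -1.78 to -0.02), with an unadjusted p = 0.0446 and a limma adjusted p of 0.400, so a strain difference was not shown. In the order of the condition means, NOD PreS and B10 PreS came first and did not differ past the threshold (adjusted p = 0.399). The 4 selecting groups followed, with adjusted p values of 0.370 to 0.999 between neighbours.

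Cd8b1, the chain that joins CD8 alpha in the coreceptor of conventional CD8 cells, showed more spread. Its signal was 307, 70.7 and 96.5 in NOD S- cells and 231, 159.9 and 127 in B10 S- cells. In S+ cells it was 39.7, 18.9 and 334 in NOD and 95.5, 201 and 266 in B10. In PreS cells the lowest, median and highest values were 136, 315 and 482 in NOD and 516, 676 and 987 in B10. Both B10 groups of selecting cells lay below every B10 PreS array, and both NOD groups overlapped with NOD PreS. The log2 fold change against PreS was -1.30 ± 0.74 (SE, limma adjusted p = 0.282) in NOD S- cells, -2.08 ± 0.32 (adjusted p = 7.70e-04) in B10 S- cells, -2.43 ± 0.74 (adjusted p = 0.0432) in NOD S+ cells and -2.01 ± 0.32 (adjusted p = 5.58e-04) in B10 S+ cells. The NOD S+ arrays with signals of 39.7 and 18.9 were those with Gapdh 3' to 5' ratios of 57.2 and 40.9. The other, at 334, had a ratio of 3.63. Leaving out the 3 arrays of highest ratio kept only the NOD S+ array at 334 and turned the NOD S+ value to 0.07. The NOD S+ call was near the threshold, and of its 27 alternative settings 14 lost it and 1, the omission of these 3 arrays, turned its sign. Among the 14 were the omission of NOD S+ replicate 1 (limma adjusted p = 0.178) or 2 (limma adjusted p = 0.237). Others were no filter (limma adjusted p = 0.0999), the methods' t-test (adjusted p = 0.102) and day as a block (limma adjusted p = 0.247). The B10 S- call was lost with hybridization day as a block (-1.40, adjusted p = 0.118). With the ratio as a covariate it was -1.52 (adjusted p = 0.0387), and the NOD S- value was then -1.60 (adjusted p = 0.0243).

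**Figure D1:**
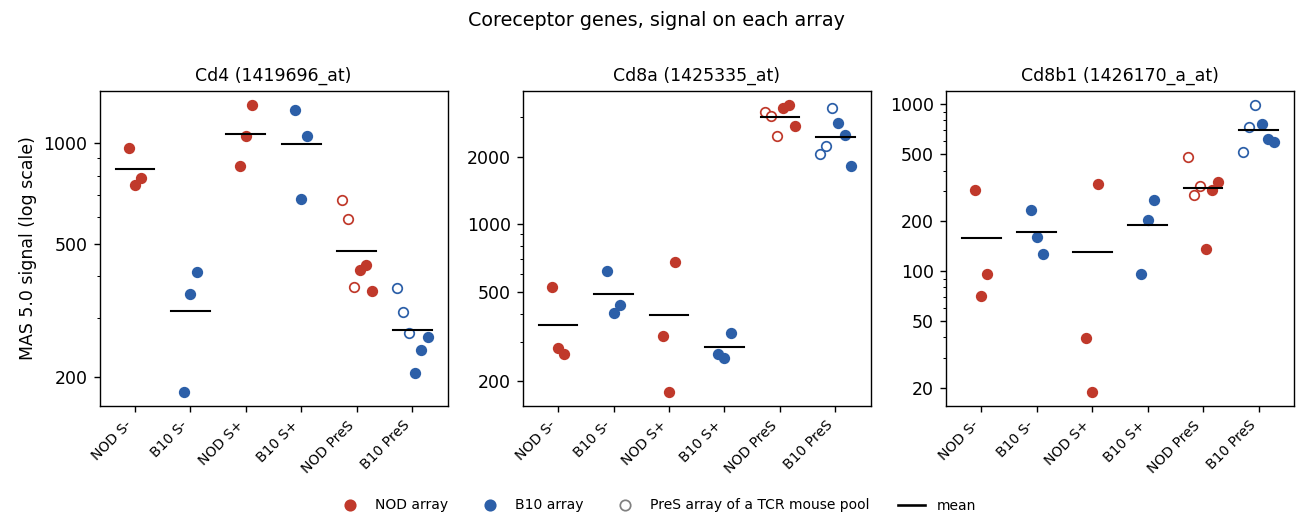
Signals of Cd4, Cd8a and Cd8b1 (vertical log axis, MAS 5.0 signal) on each of the 24 arrays by condition (horizontal axis), where points are arrays, open points PreS arrays of TCR mice and lines condition means. Cd4 was at 181 to 413 on the 3 B10 S- arrays, below all arrays of NOD S-, NOD S+ and B10 S+, and both CD8 genes were highest in PreS cells.

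Within the PreS cells, where both strains had the same double positive gate, every NOD array was below every B10 array for Cd8b1. The mean was 313 ± 111 in NOD and 702 ± 167 in B10 (SD, n = 6 each), a log2 fold change of -1.15 ± 0.50 (SE) that did not pass the threshold (limma adjusted p = 0.222). The Gapdh ratio of these arrays was 2.99 to 28.9 in NOD and 2.31 to 7.81 in B10, and with the ratio as a covariate the difference was -0.45 (adjusted p = 0.551). NOD S+ replicate 3 enters this comparison only through the spread that the joint fit shares among groups. Without it the log2 fold change stayed at -1.15 and was called (limma adjusted p = 0.0464). Cd8a did not share this direction, at 3008 ± 352 in NOD and 2450 ± 539 in B10 (SD, n = 6 each), with a log2 fold change of 0.39 (adjusted p = 0.399).

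**Figure D2:**
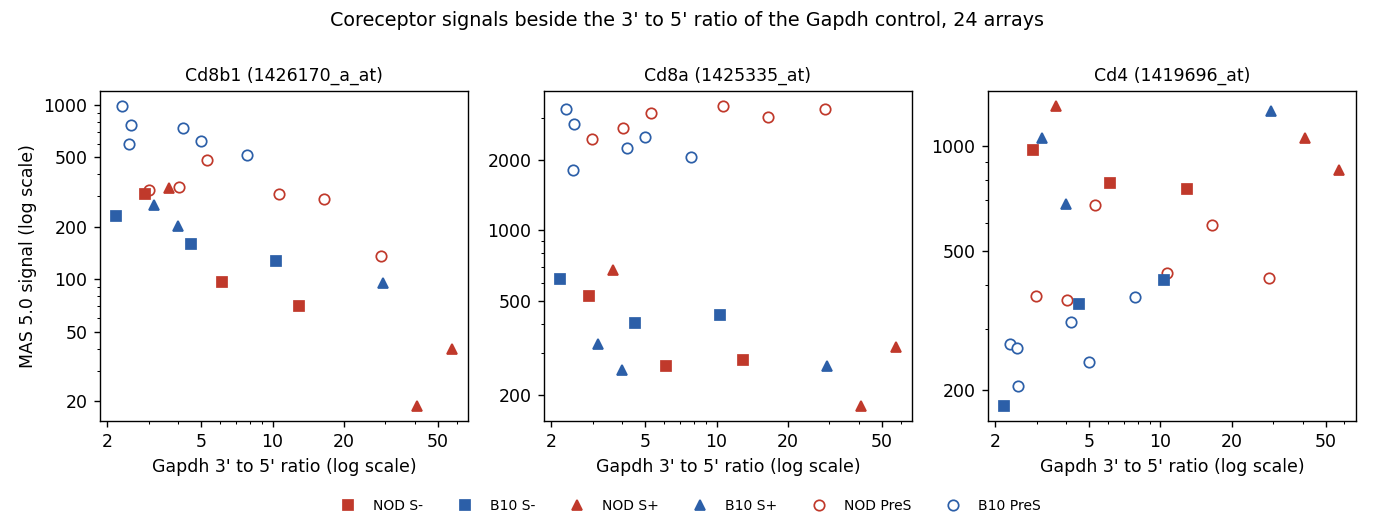
Signals of Cd8b1, Cd8a and Cd4 (vertical log axis, MAS 5.0 signal) against the 3' to 5' ratio of the Gapdh control (horizontal log axis) on the 24 arrays, by strain (colour) and cell population (shape). The 2 lowest Cd8b1 signals, 39.7 and 18.9, came from the arrays with the highest ratios, 57.2 and 40.9, and the lowest Cd4 signal, 181, came from the array with the lowest ratio, 2.19.

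Cd4, the coreceptor of class II recognition, was higher in S+ than in PreS cells of both strains, and in S- cells its level set the strains apart. The Cd4 signal was 968, 752 and 784 in NOD S- cells and 181, 354 and 413 in B10 S- cells. In S+ cells it was 852, 1052 and 1298 in NOD and 1257, 679.5 and 1048 in B10. The lowest, median and highest PreS values were 362, 425 and 676 in NOD and 206, 267 and 368 in B10. All NOD S- arrays thus lay above all B10 S- arrays, while the S+ arrays of the strains overlapped. The gate for all of these cells asked for CD4 protein on the surface, so the comparison of selecting with PreS cells is not independent of the sort, but S- and S+ cells, and the same population of both strains, were sorted alike.

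S- cells had 3.27-fold less Cd4 mRNA than S+ cells in B10, with a log2 fold change of -1.71 ± 0.33 (SE, 95% interval -2.43 to -1.0, limma adjusted p = 0.0193) and no overlap between the groups. Cd4 was the 1 gene of 7 called in this comparison, in which 1.67% of all tested probesets were called and 0.374% were called lower. The call did not hold without B10 S- replicate 1, whose signal was 181 (log2 fold change -1.35, adjusted p = 0.0839), without B10 S+ replicate 1 (-1.51, adjusted p = 0.0674) or without B10 S+ replicate 3 (-1.66, adjusted p = 0.0622). Within the 2 hybridization days that held both groups, with 1 array of each, the log2 difference was -1.67 and -1.92. With the Gapdh ratio as a covariate it was -1.54 (adjusted p = 0.0108). The summed signal of 3 markers of CD4-CD8- precursors was 513 to 598 in B10 S- and 220 to 424 in B10 S+ cells, and 486 to 664 in NOD S- and 272 to 432 in NOD S+ cells. Of these, Il2ra (log2 fold change 2.18, adjusted p = 3.03e-04) and Kit (2.63, adjusted p = 1.18e-04) were higher in B10 S- than in B10 S+ cells, and their part in the Cd4 difference was not tested. Cd44, the remaining marker, was not called between B10 S- and S+ cells. Against B10 PreS cells, Il2ra was called lower in B10 S+ cells and was not called in B10 S- cells. The paper places CD25, the protein of Il2ra, both among genes repressed in B10 positive selection and among genes increased in B10 negative selection.

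In NOD the same comparison gave a log2 fold change of -0.43 (95% interval -1.04 to 0.18, limma adjusted p = 0.803) with overlapping groups, and no gene of the 7 was called. No probeset at all was called there by limma (0% of 12838), although 565 had an unadjusted p under 0.05. Within the 2 days with both NOD groups the log2 difference of Cd4 was -0.31 and -0.37. The change from S+ to S- differed by 1.28 between NOD and B10 (interval 0.38 to 2.19), with an unadjusted p = 0.00744 and an adjusted p of 0.396, so the difference of the changes did not pass the threshold over all probesets.

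The direct comparison of the strains in S- cells did pass it. Cd4 averaged 835 ± 117 in NOD S- and 316 ± 121 in B10 S- cells (SD, n = 3 each), a log2 fold change of 1.47 ± 0.31 (SE, adjusted p = 0.00851). It was the 1 gene of 7 called, in a comparison with 2.32% of all probesets called and 1.17% called higher. It was no longer called without B10 S- replicate 1 (1.11, adjusted p = 0.0860) or without NOD S- replicate 1 (1.33, adjusted p = 0.0554). On the 1 day with both groups the log2 difference was 0.88, and with day as a block in the fit it was 1.26 (adjusted p = 0.0945). In S+ cells the strains did not differ past the threshold in Cd4, at 1067 ± 223 in NOD and 995 ± 292 in B10 (SD, n = 3 each), with a log2 fold change of 0.19 (interval -0.45 to 0.83, adjusted p = 0.778). None of the 7 genes was called in that comparison, where 3.7% of all probesets were.

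The strains also differed in Cd4 before selection. In PreS cells the mean was 475 ± 128 in NOD and 277 ± 57.0 in B10 (SD, n = 6 each), a log2 fold change of 0.79 ± 0.22 (SE, adjusted p = 0.0398), with the ranges of the strains overlapping. Cd4 was the 1 gene of 7 called, beside 4.13% of all probesets called and 1.65% called higher. This call is at the edge of the threshold. It was lost when any 1 of 9 of the 12 PreS arrays was left out, with adjusted p values from 0.0517 to 0.107, and the log2 difference stayed between 0.61 and 0.71 within the 3 days that held PreS arrays of both strains. The Gapdh ratios of the strains differ here too, as given for Cd8b1, and with the ratio as a covariate the value was 0.69 (adjusted p = 0.0983).

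Against PreS cells, Cd4 was 2.28-fold higher in NOD S+ cells (log2 fold change 1.19 ± 0.24 SE, limma adjusted p = 0.00695) and 3.46-fold higher in B10 S+ cells (1.79 ± 0.29, adjusted p = 6.23e-04). In NOD S- cells the value was 0.76 ± 0.24 (adjusted p = 0.0629), with all 3 arrays above all 6 PreS arrays, and in B10 S- cells it was 0.08 ± 0.29 (interval -0.54 to 0.70, adjusted p = 0.898). The difference between the strains in the change from PreS to S- was 0.68 (interval -0.10 to 1.46, adjusted p = 0.454). Ordered by mean, the conditions ran NOD S+, B10 S+, NOD S-, NOD PreS, B10 S- and B10 PreS, and no pair of neighbours in this order differed past the threshold (adjusted p from 0.0516 to 0.999 in the fit of all arrays). The second probeset of Cd4 had signals of 1.1 to 28.0 and did not pass the filter.

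Across these comparisons with PreS cells, 2 of the 7 genes were higher and 2 lower in NOD S+ cells, where 14.8% of all probesets were called, 6.13% higher and 8.66% lower. The same 4 genes, Cd4, Zbtb7b, Cd8a and Cd8b1, were called in the same directions in B10 S+ cells, where 16.8% were called, 7.37% higher and 9.44% lower. In NOD S- cells 1 gene (Zbtb7b) was higher and 1 (Cd8a) lower, beside 11.2% of all probesets called, 5.51% higher and 5.68% lower. In B10 S- cells Zbtb7b was higher and Cd8a and Cd8b1 were lower, beside 11.2% called, 4.42% higher and 6.8% lower. S+ and S- cells of a strain were set against the same PreS arrays, and the lower CD8 genes follow the gate. With hybridization day as a block none of the 7 genes was called in NOD S+ or NOD S- against PreS, in fits that called 5 and 0 of all probesets. In NOD, 1 day held S+ with PreS arrays and no day held S- with PreS arrays. Each gene called without the block kept its sign.

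**Figure D3:**
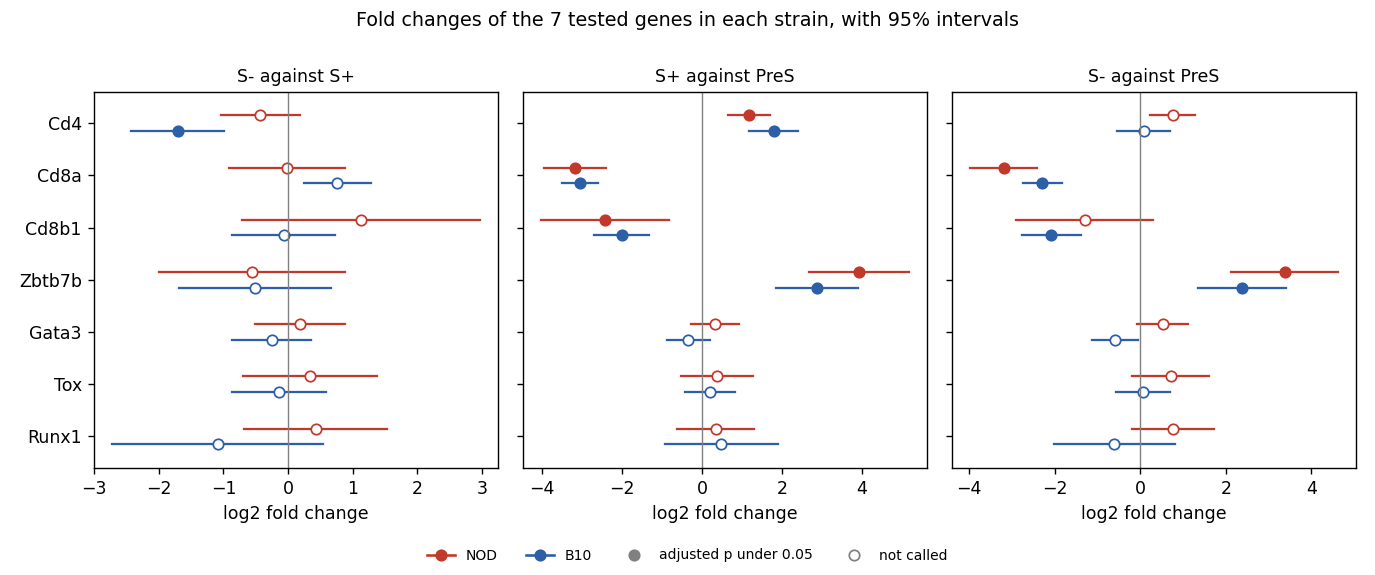
Log2 fold changes (horizontal axis) of the 7 tested genes (rows) in S- against S+, S+ against PreS and S- against PreS cells, with NOD above B10 in each row, bars for 95% intervals and filled points for an adjusted p under 0.05. Cd4 is the 1 filled point in the panel of S- against S+, at -1.71 in B10, and Zbtb7b is filled in all 4 comparisons with PreS.

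Zbtb7b, the gene of ThPOK, was the factor that rose with selection, in both strains and in S- as well as S+ cells. The signal of its brighter probeset was 223, 225 and 178.9 in NOD S- cells and 128, 157 and 178 in B10 S- cells. In S+ cells it was 228, 284 and 413 in NOD and 224, 318 and 136 in B10. In PreS cells the lowest, median and highest values were 6.1, 20.7 and 57.1 in NOD and 6.8, 30.2 and 61.4 in B10. Every selecting array lay above every PreS array. The log2 fold change against PreS was 3.37 ± 0.58 (SE, limma adjusted p = 0.00224) in NOD S- cells, 2.38 ± 0.47 (adjusted p = 0.00459) in B10 S- cells, 3.93 ± 0.58 (adjusted p = 0.00103) in NOD S+ cells and 2.88 ± 0.47 (adjusted p = 7.31e-04) in B10 S+ cells. Since 16 of the 24 arrays, all selecting arrays among them, reached a signal of 32, these folds start from values near background and their size is not exact.

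The second probeset of Zbtb7b had less spread. Its signal was 98.3, 108 and 106 in NOD S- cells and 73.7, 83.8 and 86.7 in B10 S- cells. In S+ cells it was 132, 140 and 129.6 in NOD and 153.9, 165 and 153 in B10. The PreS arrays spanned 15.2 to 44.2 in NOD and 23.4 to 47.9 in B10. Against PreS the log2 fold change was 1.65 in NOD S- cells, 1.11 in B10 S- cells, 2.03 in NOD S+ cells and 2.11 in B10 S+ cells, all called (limma adjusted p from 8.55e-06 to 0.00532). With day as a block the calls of this probeset were lost in NOD S- (adjusted p = 0.9996), B10 S- (adjusted p = 0.128) and NOD S+ cells (adjusted p = 0.684). Without the 3 arrays of highest Gapdh ratio, which leaves only NOD S+ replicate 3 in its group, the NOD S+ value was 1.98. On this probeset all S- arrays were below all S+ arrays in both strains. In B10 the S- level was 81.4 ± 6.82 against 157 ± 6.68 in S+ (SD, n = 3 each), a log2 fold change of -1.0 (95% interval -1.51 to -0.49) with an adjusted p = 0.0511, just outside the threshold. In NOD it was 104 ± 4.90 in S- against 134 ± 5.82 in S+ (SD, n = 3 each), at -0.38 (interval -1.19 to 0.42, adjusted p = 0.831). The brighter probeset gave -0.51 in B10 (adjusted p = 0.811), with overlapping groups, and -0.56 in NOD (adjusted p = 0.852). The difference between the strains in this change was 0.62 on the second probeset (interval -0.29 to 1.53, adjusted p = 0.756) and -0.05 on the brighter one (adjusted p = 0.992).

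**Figure D4:**
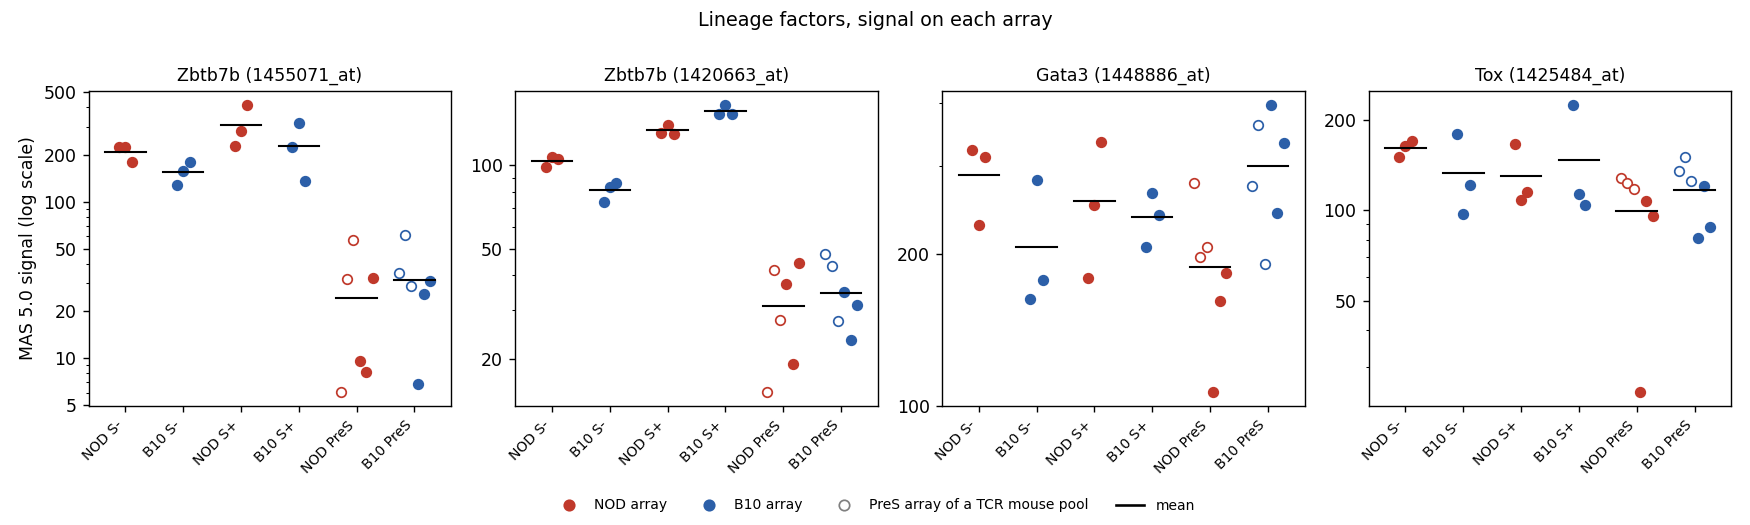
Signals of both probesets of Zbtb7b and of Gata3 and Tox (vertical log axes, MAS 5.0 signal) on each array by condition (horizontal axis), where points are arrays, open points PreS arrays of TCR mice and lines condition means. Zbtb7b (1420663_at) was at 73.7 to 108 in S- cells, 129.6 to 165 in S+ cells and 15.2 to 47.9 in PreS cells, while Gata3 and Tox overlapped between most conditions.

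Zbtb7b did not differ between the strains past the threshold in any population. The log2 fold change of NOD against B10 was 0.42 in S- cells (limma adjusted p = 0.832), 0.48 in S+ cells (adjusted p = 0.724) and -0.57 in PreS cells (adjusted p = 0.509) on the brighter probeset. In S- cells all 3 NOD arrays were above all 3 B10 arrays on both probesets. On the brighter one the nearest signals were 178.9 in NOD and 178.1 in B10, so this separation is only a description. The order of the means of the brighter probeset was NOD S+, B10 S+, NOD S-, B10 S-, B10 PreS and NOD PreS, and the 1 pair of neighbours that differed past the threshold was B10 S- and B10 PreS (adjusted p = 0.00680 in the fit of all arrays).

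Gata3, which acts ahead of ThPOK in CD4 lineage commitment, was not called in any of the 14 comparisons. Its signal was 322, 229 and 311 in NOD S- cells and 163, 281 and 178 in B10 S- cells. In S+ cells it was 179, 250.2 and 335 in NOD and 207, 265 and 239 in B10. In PreS cells the lowest, median and highest values were 107, 190.2 and 277 in NOD and 191, 303 and 395 in B10. The groups overlapped in each comparison of populations or strains. In PreS cells the mean was 189 ± 56.0 in NOD and 299 ± 77.4 in B10 (SD, n = 6 each), with a log2 fold change of -0.63 (95% interval -1.07 to -0.18, unadjusted p = 0.00788, limma adjusted p = 0.115). The change from PreS to S- was 0.52 ± 0.28 (SE) in NOD and -0.59 ± 0.25 in B10. These differed by 1.11 (interval 0.34 to 1.88, unadjusted p = 0.00649, adjusted p = 0.245), so neither change nor their difference passed the threshold.

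Tox, which encodes a nuclear factor needed for the CD4 lineage, was not called in any comparison on either probeset. The brighter probeset averaged 162 ± 9.55 in NOD S-, 133 ± 42.1 in B10 S-, 130.0 ± 31.7 in NOD S+ and 147 ± 66.8 in B10 S+ cells (SD, n = 3 each), and 99.5 ± 38.3 in NOD PreS and 117 ± 27.3 in B10 PreS cells (SD, n = 6 each). All 3 NOD S- arrays, at 151, 164 and 169.8, were above the 6 NOD PreS arrays, of which the highest was 128, with a log2 fold change of 0.71 (95% interval -0.19 to 1.60, limma adjusted p = 0.301). The correlation of both Tox probesets over the 24 arrays was 0.039, and the second was dimmer, with signals of 8.4 to 147.5. Why they did not vary together was not tested.

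Runx3, the CD8 lineage factor, was at or near background on all arrays. Its probeset had signals of 5.8 to 11.7 in NOD S- and 4.8 to 7.3 in B10 S- cells, 7.0 to 32.1 in NOD S+ and 4.5 to 7.3 in B10 S+ cells, and 2.3 to 40.4 in NOD PreS and 3.5 to 10.8 in B10 PreS cells. It reached 32 on 2 of 24 arrays. At this brightness a difference was not detectable, and no fold change is given.

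Runx1 had 5 probesets, and they did not behave alike. One of them, 1422864_at, was lower in NOD than in B10 PreS cells on every array. Its signal had a lowest value, median and highest value of 3.7, 9.15 and 17.7 in NOD PreS cells and of 50.5, 90.3 and 109 in B10 PreS cells, with a log2 fold change of -3.27 ± 0.44 (SE, adjusted p = 3.63e-05). Here 2.48% of all probesets were called lower. The call held under each of the 36 alternative settings run for it, with values from -3.57 to -2.28 and adjusted p values up to 3.08e-04. However, the probeset reached 32 on 10 of the 24 arrays and on no NOD array, where its highest signal was 31.9. It thus passed the filter on low signals only through B10 groups, in which it was high. Because the NOD values are near background, the size of this difference is not exact, and how well the probes match the NOD transcript was not tested.

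In S+ cells the same probeset read 14.1, 30.4 and 10.4 in NOD and 221, 40.8 and 89.6 in B10, with a log2 fold change of -2.66 ± 0.62 (SE, adjusted p = 0.0152), beside 1.86% of all probesets called lower. This second call was lost without NOD S+ replicate 1 (adjusted p = 0.0825), without B10 S+ replicate 1 (adjusted p = 0.0646), without B10 S+ replicate 3 (adjusted p = 0.0539) and with day as a block (adjusted p = 0.0922). With the 3 arrays of highest Gapdh ratio left out, which leaves only NOD S+ replicate 3 in its group, the log2 fold change was -2.62. In S- cells it read 11.9, 24.4 and 31.9 in NOD and 15.4, 25.6 and 53.1 in B10, and the groups overlapped (log2 fold change -0.44, adjusted p = 0.814). The signal was lower in B10 S- than in B10 PreS cells, by 1.73 ± 0.46 on the log2 scale (limma adjusted p = 0.0274), although the ranges of these groups overlapped. That call was lost without either of B10 S- replicates 1 (adjusted p = 0.146) and 2 (adjusted p = 0.102), and without B10 PreS TCR replicate 1 (adjusted p = 0.0510) or B10 PreS TCR insHEL replicate 3 (adjusted p = 0.0573). It was also lost with no filter (adjusted p = 0.0784), with the methods' t-test (adjusted p = 0.0823) and against PreS cells of TCR insHEL mice alone (adjusted p = 0.0904). The difference between the strains in the change from PreS to S- was 2.83 (95% interval 1.26 to 4.40, unadjusted p = 0.00112, adjusted p = 0.164).

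The other probesets of Runx1 did not show the lower signal in NOD PreS cells as a call. The brightest, 1452531_at, averaged 51.5 ± 19.7 in NOD PreS and 41.9 ± 21.9 in B10 PreS cells (SD, n = 6 each), with a log2 fold change of 0.49 (95% interval -0.52 to 1.50, limma adjusted p = 0.598). Another probeset, 1452530_a_at, averaged 32.7 ± 12.1 in NOD PreS and 26.2 ± 15.0 in B10 PreS cells (SD, n = 6 each). The remaining probesets, 1422865_at and 1427650_a_at, did not pass the filter. Of these, 1422865_at had all 6 NOD PreS arrays at 6.4 to 15.3 and all 6 B10 PreS arrays at 15.7 to 29.2. Correlations of 1422864_at with the 4 others over the 24 arrays ran from -0.117 to 0.333, which describes arrays that share strain and population. On 1452531_at the NOD S- arrays, at 66.1, 95.7 and 119, were all above the B10 S- arrays, at 10.8, 28.2 and 50.6 (log2 fold change 1.86, interval 0.43 to 3.30, adjusted p = 0.183). The probesets of this gene thus disagreed on the strain difference.

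**Figure D5:**
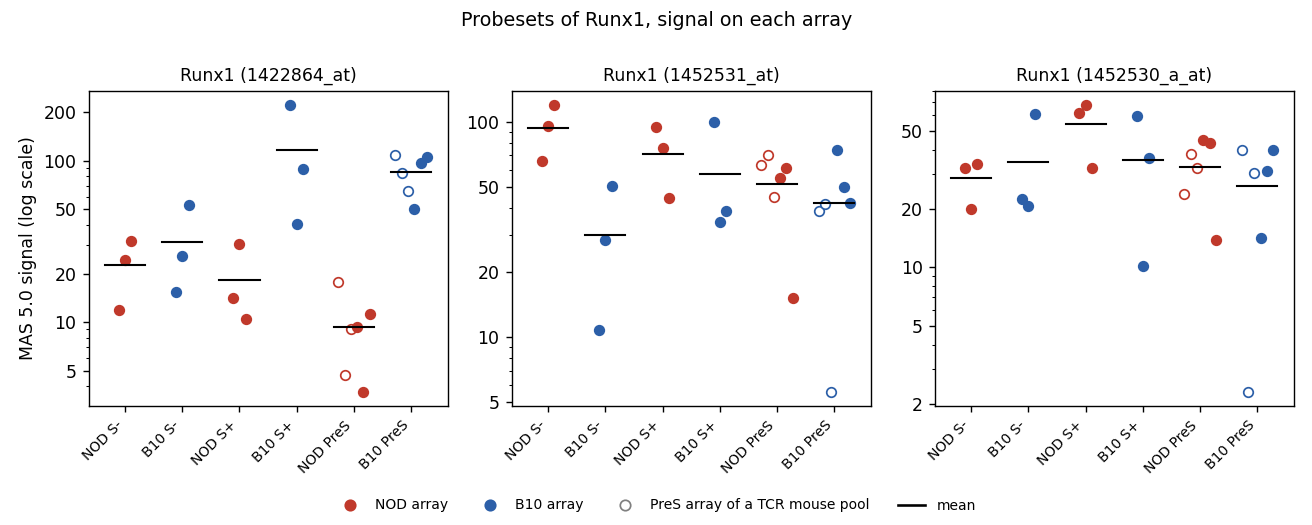
Signals of the 3 Runx1 probesets that passed the filter (vertical log axes, MAS 5.0 signal) on each array by condition (horizontal axis), where points are arrays, open points PreS arrays of TCR mice and lines condition means. On 1422864_at the 6 NOD PreS arrays were at 3.7 to 17.7 and the 6 B10 PreS arrays at 50.5 to 109, and the other probesets overlapped between the strains in PreS cells.

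The antigen transgene by itself was compared in PreS cells, which lack CD69, a mark of recent receptor signalling. None of the 7 genes was called between PreS cells of TCR insHEL and of TCR mice in either strain. The background was 0.0312% of probesets called in NOD and 0% in B10 by limma, with 1333 and 287 probesets at an unadjusted p under 0.05. For Cd4 the log2 fold change (TCR insHEL against TCR) was -0.31 (95% interval -0.90 to 0.29) in NOD and -0.44 (interval -1.14 to 0.26) in B10. Among the 7 genes the lowest unadjusted p was that of Zbtb7b in B10, at 0.0401, with a log2 fold change of -1.09 from signals of 6.8, 25.5 and 31.3 in TCR insHEL and of 34.8, 61.4 and 29.1 in TCR mice. The share of all probesets that separate fully between groups of 3 arrays was not counted, so the separations that follow are only a description. NOD TCR insHEL replicate 1, at a Gapdh ratio of 28.9, had the lowest Gata3 (107) and Tox (24.9) signals of the NOD PreS arrays. In NOD all 3 arrays of TCR insHEL mice were below all 3 of TCR mice for Gata3 (log2 fold change -0.53, limma adjusted p = 0.526) and Tox (-0.88, adjusted p = 0.496). In B10 the same held for Tox (-0.52) and Cd4, and the brightest probeset of Runx1 was higher on all 3 arrays of TCR insHEL mice (1.34), each with an adjusted p of 1.00.

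The differences between the strains in the 3 changes (S+ against PreS, S- against PreS and S- against S+) were also tested over all probesets. None of the 7 genes was called in these tests, where 0.358%, 0.101% and 0.148% of all probesets were.

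The correlation of standardized log2 signals was 0.755 between Cd8a and Cd8b1 over all arrays and 0.787 after the condition means were taken off. Between Cd8a and Zbtb7b it was -0.885 over all arrays and -0.132 within conditions, and between Cd4 and Zbtb7b 0.555 and 0.028. These values describe 24 arrays that share strain, population and RNA quality, and they are not tests.

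The genes with a pattern most like each of 3 members were taken by Pearson correlation over the 24 arrays among 5095 genes with a mean signal of at least 100. For Cd4 these were Spsb1 (0.882), Ikbkg (0.863), Ctse (0.846), Gm2a (0.838) and Ptk2b (0.835). Like Cd4, Ctse, which encodes cathepsin E, averaged 356 ± 63.5 in NOD S- and 108 ± 11.3 in B10 S- cells (SD, n = 3 each). Spsb1, an adaptor of a ubiquitin ligase, averaged 612 ± 110 in NOD S- and 211 ± 13.5 in B10 S- cells (SD, n = 3 each). For Cd8a they were Ctsl (0.982), Selenoh (0.964), Pole2 (0.960), Tacc3 (0.958) and Pcna (0.955), among which Pole2 and Pcna serve DNA replication. For Zbtb7b they were Il7r (0.904), Cd7 (0.890), Tacc2 (0.887), Dennd2d (0.886) and Izumo1r (0.886). By rank correlation 3, 1 and 2 of the 5 genes stayed among the top 5 for Cd4, Cd8a and Zbtb7b. Since the genes were chosen over these same arrays, levels shared with a member, such as those of Ctse and Spsb1, follow from the choice.

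Among known regulators of the coreceptor genes and partners of the factors, Myb stood out. Myb, a transcription factor of immature thymocytes, averaged 893 ± 172 in NOD S-, 758 ± 85.0 in B10 S-, 841 ± 245 in NOD S+ and 394 ± 51.4 in B10 S+ cells (SD, n = 3 each), and 1811 ± 345 in NOD PreS and 1547 ± 117 in B10 PreS cells (SD, n = 6 each). It fell in all 4 comparisons with PreS. In B10 it was higher in S- than in S+ cells, the opposite direction to Cd4, with a log2 fold change of 0.96 ± 0.19 (SE, adjusted p = 0.0251), and it was higher in NOD S+ than in B10 S+ cells by 1.11 ± 0.22 (adjusted p = 0.00405). Smarce1, a subunit of the BAF remodelling complex that acts on Cd4 and the CD8 genes, averaged 243 ± 86.7 in NOD S- and 701 ± 161 in B10 S- cells and 169 ± 83.7 in NOD S+ and 519 ± 123 in B10 S+ cells (SD, n = 3 each), lower in NOD in S- (log2 fold change -1.61 ± 0.31, adjusted p = 0.00421) and in S+ (-1.75 ± 0.31, adjusted p = 0.00167). Lef1, a partner of Tcf7 in thymocytes, averaged 255 ± 140 in NOD S- (SD, n = 3) and 49.7 ± 19.7 in NOD PreS cells (SD, n = 6), at 2.14 ± 0.47 (adjusted p = 0.0100).

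Of 18 genes on that list 15 were on the array and 13 passed the filter. Against PreS, 1 was higher and 1 lower in NOD S- cells, 0 and 1 in B10 S- cells, 0 and 2 in NOD S+ cells and 0 and 1 in B10 S+ cells. Of all probesets 11.2%, 11.2%, 14.8% and 16.8% were called in these comparisons, so the counts of this list stand near or below the background. Their median log2 fold change was 0.25, -0.28, 0.17 and -0.18 in the same order, beside medians of 0.02, 0.01, 0.02 and 0.04 over all probesets. Between S- and S+ none was called in NOD, and 1, Myb, was higher in B10.

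Of 13 genes of the CD8 lineage and of cytotoxic cells 7 passed the filter. Ctsw, a cathepsin of cytotoxic cells, averaged 520.2 ± 13.2 in NOD S-, 935 ± 16.5 in B10 S-, 375 ± 124 in NOD S+ and 592 ± 55.5 in B10 S+ cells (SD, n = 3 each), and 52.8 ± 13.5 in NOD PreS and 64.2 ± 25.8 in B10 PreS cells (SD, n = 6 each), and it rose in all 4 comparisons with PreS. Il2rb, a chain of the receptors for IL-2 and IL-15, was also called higher in all 4 comparisons with PreS. It reached 172 ± 35.2 in B10 S- cells, against 22.2 ± 12.6 in B10 PreS cells (SD, n = 3 and 6), a log2 fold change of 3.06 ± 0.49 (adjusted p = 0.00102). Gzma, the gene of granzyme A, was high before selection, at 3863 ± 1166 in NOD PreS and 2869 ± 542 in B10 PreS cells (SD, n = 6 each). It averaged 1694 ± 259 in B10 S- and 408 ± 203 in B10 S+ cells (SD, n = 3 each), with a log2 fold change of 2.20 ± 0.32 for S- against S+ (adjusted p = 0.00324). Nkg7, a protein of cytotoxic granules, averaged 73.9 ± 25.8 in NOD S- and 239.5 ± 49.1 in B10 S- cells (SD, n = 3 each), with a log2 fold change of -1.77 ± 0.38 (adjusted p = 0.0103). It was lower in NOD before selection too, at 52.6 ± 25.4 in NOD PreS and 119.9 ± 29.4 in B10 PreS cells (SD, n = 6 each, log2 fold change -1.25, adjusted p = 0.00564). Ccl5 was higher in NOD S+ cells, at 187 ± 140, against 20.7 ± 17.4 in B10 S+ cells (SD, n = 3 each, adjusted p = 0.00179). Against PreS, Ccl5 was called higher in NOD S+ and lower in B10 S+ cells. The markers of dendritic cells and macrophages were also high in NOD S+ cells, and their part in the Ccl5 difference was not tested. Of the 7 genes 3 were higher and 1 lower in NOD S-, 3 and 0 in B10 S-, 3 and 1 in NOD S+ and 2 and 2 in B10 S+ against PreS, beside 5.51% and 5.68%, 4.42% and 6.8%, 6.13% and 8.66%, and 7.37% and 9.44% of all probesets higher and lower.

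Of 9 helper and coreceptor signalling genes 7 were on the array and 6 passed the filter, and 2 of them, Il7r and Ccr7, were higher in all 4 comparisons with PreS, where 5.51% (NOD S-), 4.42% (B10 S-), 6.13% (NOD S+) and 7.37% (B10 S+) of all probesets were. Il7r, the receptor chain for IL-7, averaged 539 ± 103 in NOD S- and 390 ± 120 in B10 S- cells and 822 ± 274 in NOD S+ and 504 ± 87.1 in B10 S+ cells (SD, n = 3 each), against 59.2 ± 24.4 in NOD PreS and 103 ± 41.9 in B10 PreS cells (SD, n = 6 each). Ccr7, which guides thymocytes to the medulla, had log2 fold changes of 4.95, 3.67, 4.69 and 4.75 against PreS in NOD S-, B10 S-, NOD S+ and B10 S+ cells (limma adjusted p from 4.47e-07 to 5.29e-05). None of the 6 was called between S- and S+ cells or between the strains.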

How the data were processed

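mRNA was measured on 24 arrays, 3 pools in each of 8 groups, after 2 rounds of RNA amplification of cells stained in the presence of transcription inhibitors. The deposited values are MAS 5.0 signals, an intensity on a linear scale that the authors scaled to a common trimmed mean on each array. The deposited scanner records were read only for the hybridization day (9 days).

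Of 22690 probesets 64 controls were removed, 33 signals of 0 became 0.1, and each array of log2 values was given the same mean and variance. A probeset was kept when its signal reached 32 on every one of the 3 arrays of a group (12838 probesets). Genes were named from the array annotation, with symbols updated to RefSeq, and 20380 probesets had 1 symbol. Each strain's own comparisons used limma 3.58.1 (R 4.3.3) on its 12 arrays, with both PreS groups merged. Strains were compared in 1 fit of 24 arrays. P values were adjusted by Benjamini-Hochberg over all kept probesets. Groups were taken from the sample labels. Nothing says how many animals made up a pool, so p values measure the spread between pools. All 8 genes were named, with the genes most like Cd4, Cd8a and Zbtb7b, and genes of 3 lists that passed the threshold with a mean signal of at least 100 (at most 4 per list and comparison). The members and lists were chosen with earlier results of these data known. The limma script was tested on simulated data. With 3 or 6 arrays in a group, their number limits the precision. The correlation between replicates ran from 0.843 to 0.967.

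The settings varied one at a time were the filter (absent, or at 64), the scaling (quantile, or that of MAS 5.0 alone), low signals raised to 16, blocks for replicate number or hybridization day, weights for arrays, 1 joint fit, PreS limited to the matching mice, the methods' t-test, the choice of probeset and the omission of single arrays. Chosen after seeing the data were a random effect of day, a covariate for the Gapdh ratio and the omission of its 3 highest arrays.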

Additional observations from a re-analysis of the deposited data

Results flagged for a closer look

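In 32 sets of 6 PreS arrays tested for an array far from the others, 4 were past the limit, and chance puts about 1 in 20 sets there. For the Runx1 probeset 1452531_at, B10 PreS TCR replicate 3 read 5.6, where the other B10 PreS arrays read 38.7 to 73.7. On the same probeset NOD PreS TCR insHEL replicate 3 read 15.3, where the other NOD PreS arrays read 44.8 to 70.1. For the Runx1 probeset 1452530_a_at, B10 PreS TCR replicate 2 read 2.3, where the others read 14.1 to 40.0. For Tox (1425484_at), NOD PreS TCR insHEL replicate 1 read 24.9, where the others read 95.9 to 128. This array had the highest Gapdh 3' to 5' ratio of the PreS arrays, 28.9.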

How the results depend on the processing

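Counts here are genes of the 7 past the threshold in a comparison. Values past it in neither setting were given no direction. The counts against PreS in B10 were 4 in S+ and 3 in S- cells whichever array was left out. A block for day gave 2 in B10 S- cells, losing Cd8b1 (-1.40, adjusted p = 0.118). Without single arrays the count was 0 to 1 for B10 S- against S+ (1 with all arrays), 3 to 4 for NOD S+ and 2 to 3 for NOD S- against PreS (4 and 2 with all arrays), and 0 to 2, 0 to 1 and 0 to 1 for NOD against B10 in PreS, S+ and S- cells (1, 0 and 1 with all arrays).

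For B10 S- against S+ the count was 0 with no filter, with the methods' t-test, with the next brightest probeset and without B10 S+ replicate 1, the only B10 array among the 3 of highest 3' to 5' ratio. Cd4 had adjusted p values of 0.0728, 0.0644 and 0.0674 under the first, second and last of these, with the sign unchanged. Cd4 has no second probeset past the filter and was not tested in the third, which alone sets that count to 0. With hybridization day as a block it was 0 for NOD S+ against PreS, NOD S- against PreS and NOD against B10 in PreS and in S- cells, and 1 for PreS TCR insHEL against PreS TCR cells in NOD (Tox, log2 fold change -2.12). With array weights it was 5 for NOD S- against PreS, 1 for NOD S- against S+, 1 and 3 for NOD against B10 in S+ and S- cells, and 2 for the strain difference in S- against PreS. With the ratio as a covariate it was 4 for NOD S- against PreS and 0 for NOD against B10 in PreS cells. Without the 3 arrays of highest ratio only NOD S+ replicate 3 was left in its group, so no count is given for fits that hold NOD S+ cells. With no filter the count was 0 for NOD against B10 in PreS cells.

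The sign turned for Cd8b1 in NOD S+ against PreS without the 3 arrays of highest ratio (0.0703), and for Runx1 with its next brightest probeset in NOD against B10 in PreS (-3.27) and S+ cells (-2.66). With that probeset the count was 1 for NOD against B10 in S+ and 0 in S- cells, where Cd4 was not tested. The cause of these changes was not tested, except that fewer arrays or another probeset enter by construction.

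Deviations of samples with the same replicate number had a mean correlation of 0.0508 (from -0.314 to 0.632), against -0.0262 for different numbers. Of 24 arrays 12 correlated best with an array of their own number. These values do not settle whether the number pairs the samples, and the main fits had no pairing. With the replicate block the count for NOD against B10 in PreS cells was 0 (Cd4, adjusted p = 0.0521), and no other call of a gene or probeset changed.

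Over all probesets, day as a block moved the calls from 1899 to 5 in NOD S+ and from 1437 to 0 in NOD S- against PreS, and array weights moved them to 4053 and 3983. For B10 S- against S+ the count of 214 was 96 with no filter, 113 with day as a block and 142 with the methods' t-test. Zbtb7b (1420663_at) in B10 S- against S+ had adjusted p values of 0.0226 to 0.178 over its alternatives and passed the threshold in 6 of them. Signals near 32 and groups of 3 arrays limit what could be seen for Runx1, Runx3 and Zbtb7b.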
